A study of Homo sapiens with 9 samples.

Results

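The genes described here encode the enzymes that desaturate and lengthen fatty acids: SCD, SCD5, FADS1, FADS2, ELOVL1, ELOVL5, ELOVL6, HSD17B12 and TECR. They are a list of 9 genes chosen for their function, with earlier results of these data known. Their members on the array are all probe sets that the annotation gives to exactly 1 gene of the list. That rule took 23 of 54613 probe sets (41091 of these name exactly 1 gene) and 7 of the 9 genes. The probe sets of FADS1 (3 probe sets) and ELOVL1 (2 probe sets) carry a second gene in the annotation, so neither gene has a value here. Of the 23 probe sets, 18 were above the filter on low signal, and all 7 genes had at least 1 of them.

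The cells were PANC-1, an established line from a human pancreatic adenocarcinoma. They were kept for 72 hours in a medium with 1% charcoal filtered serum that held DMSO alone, 0.1 µM TVB-3166 or 1.0 µM TVB-3166. The treated samples are labelled with DMSO as well, at the higher of the concentrations that label fields give for the DMSO samples. Whether the vehicle was equal is thus not settled, and a difference in it cannot be told apart from the treatment. TVB-3166 is the compound of a study whose title names inhibition of fatty acid synthase. Each of the 3 groups had 3 arrays; the labels speak of triplicate treatments without naming separate cultures, and the spread behind each p-value may thus be technical.

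Fatty acid synthase (FASN) makes palmitate, a saturated fatty acid, from acetyl-CoA and malonyl-CoA. In the endoplasmic reticulum, desaturases place double bonds in fatty acyl-CoA chains and a cycle of 4 enzymes lengthens them. In that cycle an ELOVL enzyme condenses the chain with malonyl-CoA, HSD17B12 reduces the ketoacyl product, a HACD enzyme removes water and TECR reduces the remaining double bond. Desaturases take electrons from cytochrome b5, and the factors SREBP and LXR are known to drive several of these genes in liver and other tissues.

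The arrays of a group correlated at 0.981 to 0.990 across genes, which are not independent replicates. Log2 ratios of 3′ to 5′ GAPDH probe sets averaged −0.14 ± 0.05 in DMSO, −0.11 ± 0.01 at 0.1 µM and −0.18 ± 0.05 at 1.0 µM (SD, n = 3 each). The hybridisation spikes added to every sample parted the arrays at a mean log2 signal of 11.68 into a higher set of 4 and a lower set of 5. The higher set holds DMSO replicate 2, 0.1 µM replicates 1 and 3 and 1.0 µM replicate 2, so it crosses all groups unevenly; whether it marks a batch is not recorded. Changes within each set are given below, without p-values, for the genes that rose or fell. In the higher set DMSO and 1.0 µM have 1 array each, and in the lower set 0.1 µM has 1 array. The epithelial markers KRT8, KRT18, KRT19 and EPCAM were all above the filter, as was VIM (vimentin), a mesenchymal marker. Of other cell types, 0 of 4 adipocyte, 0 of 3 acinar or endocrine pancreas, 2 of 4 blood (CD3E and HBB), 1 of 3 endothelium (PECAM1) and 1 of 3 hepatocyte markers (APOA1) measured were above it. Of the epithelial markers, KRT8 (log2 change −0.86, adjusted p = 0.00165) and KRT19 (−0.90, adjusted p = 0.00258) were lower at 1.0 µM than in DMSO. The 4 epithelial markers summed to 52380.4 to 73489 in DMSO, 45145 to 64186 at 0.1 µM and 35249 to 50493 at 1.0 µM, and VIM changed by 0.01 (adjusted p = 0.989) at 1.0 µM. Of 4 fibroblast markers 2, COL3A1 and DCN, were above the filter. COL3A1 was lower at 1.0 µM (−1.51, adjusted p = 7.12e-05) and at 0.1 µM (−0.68, adjusted p = 0.0261). DCN was not called (0.35, adjusted p = 0.417 at 1.0 µM, and 0.09, adjusted p = 0.883 at 0.1 µM). The 4 summed to 401 to 502 in DMSO, 311 to 380.0 at 0.1 µM and 209 to 282 at 1.0 µM. From DMSO to 1.0 µM the mean of COL3A1 went from 313 to 100 and that of DCN from 96.7 to 125. The part of these markers in the results below was not tested.

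Promoters are shown for 4 members whose values differ in direction or in dose: SCD, ELOVL6 and FADS2, which rose, and TECR, which fell at 1.0 µM. Each run below is the RefSeq window on build GRCh38.p14 from 250 bases before to 50 bases after an annotated start, 5′ to 3′ on the strand of the gene; of FADS2 and TECR, which have 2 entries each, the one with the higher coordinate is shown. Capitals mark CCAAT, the box bound by the factor NF-Y, and GGGCGG, a box bound by Sp1, on either strand (ATTGG and CCGCCC on the opposite one).
SCD, chr10:100346983-100347282, plus strand: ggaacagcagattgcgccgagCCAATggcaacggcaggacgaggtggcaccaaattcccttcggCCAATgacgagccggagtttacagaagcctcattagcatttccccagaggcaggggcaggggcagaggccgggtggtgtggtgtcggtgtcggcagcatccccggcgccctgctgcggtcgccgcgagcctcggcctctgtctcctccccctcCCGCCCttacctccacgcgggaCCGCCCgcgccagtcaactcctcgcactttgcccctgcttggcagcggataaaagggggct
ELOVL6, chr4:110198566-110198865, minus strand: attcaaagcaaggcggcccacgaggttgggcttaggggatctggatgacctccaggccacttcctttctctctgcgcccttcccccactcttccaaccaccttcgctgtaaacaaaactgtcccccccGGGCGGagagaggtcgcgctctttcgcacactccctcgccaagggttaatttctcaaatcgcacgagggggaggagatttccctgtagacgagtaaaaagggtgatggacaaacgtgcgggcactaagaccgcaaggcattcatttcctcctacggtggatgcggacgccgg
FADS2, chr11:61816154-61816453, plus strand: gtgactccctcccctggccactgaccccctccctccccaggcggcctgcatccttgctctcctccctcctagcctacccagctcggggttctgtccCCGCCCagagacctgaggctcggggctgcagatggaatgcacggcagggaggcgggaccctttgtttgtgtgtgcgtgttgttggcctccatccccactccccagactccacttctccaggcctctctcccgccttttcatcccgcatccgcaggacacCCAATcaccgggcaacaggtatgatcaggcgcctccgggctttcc
TECR, chr19:14529344-14529643, plus strand: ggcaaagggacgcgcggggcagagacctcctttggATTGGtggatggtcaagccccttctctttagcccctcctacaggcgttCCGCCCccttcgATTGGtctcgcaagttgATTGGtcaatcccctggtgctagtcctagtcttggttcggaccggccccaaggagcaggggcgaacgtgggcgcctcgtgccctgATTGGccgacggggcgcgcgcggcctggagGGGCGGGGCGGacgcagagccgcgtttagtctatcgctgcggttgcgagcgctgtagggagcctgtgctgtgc

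The SCD window holds CCAAT at positions 22 and 65 and GGGCGG on the opposite strand at positions 218 and 240, counted from 1 at the 5′ end. The ELOVL6 window holds GGGCGG at position 129 and no CCAAT. The FADS2 window holds CCAAT at position 256 and GGGCGG on the opposite strand at position 97, while the other FADS2 window holds neither. TECR, the member that fell, holds 4 copies of CCAAT, all on the opposite strand, and 3 of GGGCGG. The table has 10 windows for 8 of the 9 genes. Both TECR windows overlap and hold the same boxes, so the counts are given by gene: CCAAT stood in a window of 6 of the 8 genes and GGGCGG in one of 7 of 8. Of 35116 windows of the same length, 300 bases, 34.6% held CCAAT and 45% GGGCGG, a share per window and not per gene. The E-box CACGTG stood in a window of 1 of the 8 genes (7.26% of all windows). The sterol regulatory element form TCACNCCAC (1.13% of all) and the LXR form, AGGTCA repeated after 4 free bases (0.0199% of all), stood in none. These matches on both strands describe letters only; no binding was measured.

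Changes are given as log2 of (signal + 16) with the standard error of limma, a linear model with a moderated variance, over 3 arrays a group. A gene was called at a Benjamini-Hochberg adjusted p under 0.05 over all 13948 genes tested, and the probe set with the highest mean stood for each gene. At 1.0 µM against DMSO, 4 of the 7 genes rose (SCD, FADS2, ELOVL6 and HSD17B12), 1 fell (TECR) and 2 were not called (SCD5 and ELOVL5). Over all genes 23.2% were called in that comparison, 12.3% higher and 11.0% lower. The median change of the 7 was 0.62, beside 0.01 over all genes tested. At 0.1 µM against DMSO the same 4 genes rose, none fell and 3 were not called, where 12.0% of all genes were called, 6.89% higher and 5.11% lower. The median of the 7 was 0.73, beside −0.01 over all genes. Both comparisons share the 3 DMSO arrays, so they are not independent of each other. In bulk RNA such as this, fewer cells with a transcript and less of it per cell cannot be told apart.

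**Figure D1:**
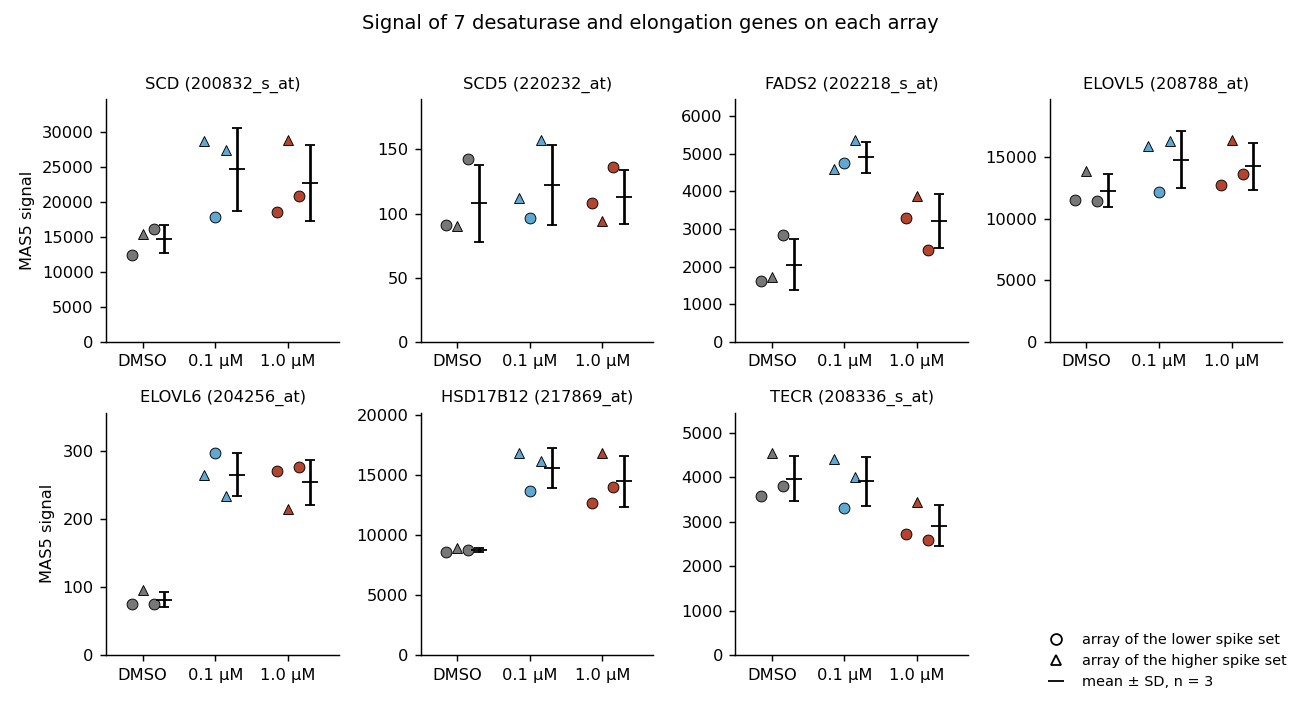
MAS5 signal (y axis, linear, from 0) of the probe set that stands for each of the 7 genes on every array in DMSO, 0.1 µM and 1.0 µM TVB-3166 (x axis); bars are mean ± SD (n = 3) and triangles mark the 4 arrays with higher hybridisation spikes. All treated arrays of ELOVL6 and HSD17B12 lie above all DMSO arrays, the 0.1 µM arrays of FADS2 lie above all others, and the 1.0 µM arrays of TECR include the lowest 2 of the 9.

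Of the elongases, ELOVL6 extends saturated and monounsaturated chains, among them the palmitate that FASN makes. ELOVL6 (Entrez gene 79071, chr4:110045846-110199202) had signals of 75.1, 95.1 and 74.6 in DMSO, 265, 297.6 and 234.2 at 0.1 µM, and 270.5, 215.5 and 276.7 at 1.0 µM in probe set 204256_at. No treated array reached down to the DMSO arrays, and the treated groups overlapped each other. The change was 1.47 ± 0.17 at 1.0 µM (adjusted p = 7.67e-05) and 1.53 ± 0.17 at 0.1 µM (adjusted p = 0.000133), and the doses differed by −0.06, with a 95% interval of −0.44 to 0.32. A dimmer ELOVL6 probe set, 210868_s_at, gave 36.4, 43.7 and 16 in DMSO, 88.2, 117.6 and 77.8 at 0.1 µM, and 93.7, 55.8 and 109.5 at 1.0 µM. Its arrays did not overlap with DMSO either. Over 32768 probe sets its change was 1.10 at 1.0 µM (adjusted p = 0.0273) and 1.24 at 0.1 µM (adjusted p = 0.0280). Its DMSO mean, 32.0, lay under the filter signal of 38.95, so it passed the filter through the treated arrays. It is thus no separate support for the rise of the gene. A further ELOVL6 probe set, 227491_at, was under the filter. The call of 204256_at held under all 23 alternatives tried on probe sets at both doses. At 1.0 µM that of 210868_s_at was lost without 1.0 µM replicate 1 or 3 or DMSO replicate 3 (adjusted p 0.0885 to 0.118). At 0.1 µM it was lost without any single 0.1 µM array or DMSO replicate 1 or 3 (0.0566 to 0.0923). Without the filter it was also lost, at adjusted p = 0.0623 and 0.0657.

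Within the lower spike set 204256_at of ELOVL6 changed by 1.67 at 1.0 µM and 1.79 at 0.1 µM, and within the higher set by 1.06 and 1.25. For 210868_s_at the change at 1.0 µM was 1.52 in the lower set and 0.27 in the higher. At 0.1 µM it was 1.71 in the lower set and 0.73 in the higher. Whether the sets differ was not tested.

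HSD17B12 performs the ketoacyl reduction of the cycle. HSD17B12 (Entrez gene 51144, chr11:43556721-43856615) had signals of 8625, 8931 and 8714 in DMSO, 16842, 13704 and 16188 at 0.1 µM, and 12683, 16827 and 13983 at 1.0 µM in probe set 217869_at. The DMSO arrays lay close together, at 8757 ± 157 (SD), and every treated array lay above them. The change was 0.72 ± 0.13 at 1.0 µM (adjusted p = 0.00144) and 0.82 ± 0.13 at 0.1 µM (adjusted p = 0.00108). Probe set 1554122_a_at read 45.2, 56.5 and 39.4 in DMSO, 111.2, 124.2 and 148.3 at 0.1 µM, and 154.4, 83.6 and 150.2 at 1.0 µM. It too had no overlap with DMSO, and it rose by 1.17 at 1.0 µM (adjusted p = 0.00607) and 1.19 at 0.1 µM (adjusted p = 0.0107). Probe sets 1554121_at and 1559518_at of the gene were under the filter and were not tested. The call of 217869_at held under all 23 alternatives tried on probe sets at both doses. Without 0.1 µM replicate 3 that of 1554122_a_at at 0.1 µM was lost (1.09, adjusted p = 0.0645). Within the lower and higher spike sets 217869_at changed by 0.62 and 0.91 at 1.0 µM and by 0.66 and 0.89 at 0.1 µM. For 1554122_a_at the changes were 1.53 and 0.46 at 1.0 µM, and 1.27 and 1.00 at 0.1 µM.

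ELOVL5, an elongase of polyunsaturated chains, was not called at either dose on the deposited scale, a result that another normalization turned. ELOVL5 (Entrez gene 60481, chr6:53267404-53348950) had signals of 11538, 13823 and 11452 in DMSO, 15923, 12133 and 16286 at 0.1 µM, and 12694, 16389 and 13617 at 1.0 µM in probe set 208788_at. The 3 groups overlapped, with changes of 0.21 (95% interval −0.11 to 0.53, adjusted p = 0.349) at 1.0 µM and 0.26 (−0.06 to 0.58, adjusted p = 0.299) at 0.1 µM. Of its 3 other tested probe sets, 215082_at changed most, by 0.51 (adjusted p = 0.122) at 1.0 µM and 0.49 (adjusted p = 0.200) at 0.1 µM. Its signals were 135.1, 111.8 and 110.8 in DMSO, 143.7, 168.7 and 212.5 at 0.1 µM, and 131.3, 187.1 and 222.7 at 1.0 µM, so all 0.1 µM arrays and 2 of the 1.0 µM arrays lay above DMSO. With quantile normalization the gene was called at both doses (0.24, adjusted p = 0.00544 at 1.0 µM and 0.22, adjusted p = 0.0187 at 0.1 µM). With the spike set as a block it was called at 1.0 µM (0.21, adjusted p = 0.0182).

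TECR, the enoyl reductase that closes the elongation cycle, was the member that fell. TECR (Entrez gene 9524, chr19:14527726-14565980) had signals of 3572, 4549 and 3804 in DMSO, 4410, 3312 and 4013 at 0.1 µM, and 2723, 3442 and 2582 at 1.0 µM in probe set 208336_s_at. All 1.0 µM arrays lay below all DMSO arrays, and the 0.1 µM arrays spread across both groups. The change was −0.45 ± 0.14 at 1.0 µM (adjusted p = 0.0370) and −0.03 ± 0.14 at 0.1 µM (95% interval −0.33 to 0.28, adjusted p = 0.936). Between the doses, 1.0 µM minus 0.1 µM, it was −0.42 ± 0.14 (−0.73 to −0.12), which did not pass the adjustment (adjusted p = 0.235). The other TECR probe set, 1569392_at, read 103.4, 90.5 and 118.6 in DMSO, 103.9, 89.6 and 119.8 at 0.1 µM, and 102.2, 62.7 and 80.9 at 1.0 µM. Its groups overlapped and its change at 1.0 µM was −0.31 (adjusted p = 0.392). The fall at 1.0 µM was no longer called without 1.0 µM replicate 1 or 3, 0.1 µM replicate 3, or DMSO replicate 2 or 3 (−0.48 to −0.35, adjusted p 0.0548 to 0.144). It was also not called without the filter (adjusted p = 0.0568), without the intensity trend (0.0796) or with the replicate block (0.071). Where 1569392_at stood for the gene the change was −0.31 (adjusted p = 0.376), and a 1.5-fold minimum lost the call too. Of 23 alternatives on probe sets, 14 lost the call of 208336_s_at. Within the spike sets the change of the gene was −0.47 (lower) and −0.40 (higher).

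SCD, the stearoyl-CoA desaturase that puts the first double bond into palmitoyl- and stearoyl-CoA, has 4 probe sets, and their changes differed in size. SCD (Entrez gene 6319, chr10:100347233-100364826) had signals of 2399, 3154 and 4321 in DMSO, 12900.2, 9076 and 12075 at 0.1 µM, and 8476, 12478 and 9523 at 1.0 µM in probe set 211162_x_at. Every treated array was above every DMSO array. The change was 1.64 at 1.0 µM (adjusted p = 0.000206) and 1.81 at 0.1 µM (adjusted p = 0.000238) over all probe sets. Probe set 211708_s_at read 5085, 5847 and 7438 in DMSO, 17389, 11927 and 16922 at 0.1 µM, and 11848, 17413 and 14124 at 1.0 µM. It showed no overlap with DMSO either and rose by 1.24 at 1.0 µM (adjusted p = 0.000728) and 1.33 at 0.1 µM (adjusted p = 0.000919).

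The other SCD probe sets moved less. Probe set 200831_s_at read 7515, 10938 and 11592 in DMSO, 27166, 14669.8 and 21868 at 0.1 µM, and 14564, 26618 and 16288 at 1.0 µM. It rose by 0.91 at 1.0 µM (adjusted p = 0.0312) and 1.06 at 0.1 µM (adjusted p = 0.0262). Probe set 200832_s_at, which stands for the gene, read 12360.1, 15455 and 16103 in DMSO, 28682, 17853 and 27392 at 0.1 µM, and 18518, 28857 and 20827 at 1.0 µM. All treated arrays lay above DMSO in both probe sets, and the spread among them was wide. For 200832_s_at the change was 0.62 ± 0.21 at 1.0 µM and 0.73 ± 0.21 at 0.1 µM. Over genes that gave adjusted p = 0.0491 and 0.0394, and over probe sets 0.0592, which is not called, and 0.0499.

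On the treated arrays SCD stood near the top of the signal range. Probe set 200832_s_at was at 56.3, 48.6 and 59.2% of the highest signal of its array in DMSO, at 82.9, 84.1 and 90.0% at 0.1 µM and at 83.8, 78.2 and 82.2% at 1.0 µM. The highest signal was 21236 to 27209 on arrays of the lower spike set and 30426 to 36887 on those of the higher set. Within the lower set the gene's change was 0.48 at 1.0 µM and 0.34 at 0.1 µM, and within the higher set 0.90 and 0.86. The part of this position in the range in the smaller change of 200832_s_at was not tested.

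The gene-level call of SCD at 1.0 µM was lost without 1.0 µM replicate 2 or 3, 0.1 µM replicate 3 or any DMSO array (0.43 to 0.69, adjusted p 0.0628 to 0.170), and at 0.1 µM without 1.0 µM replicate 3, 0.1 µM replicate 1 or 3 or any DMSO array (0.60 to 0.80, adjusted p 0.0572 to 0.164). For 200831_s_at the call was lost without 1.0 µM replicate 2 or 3 or DMSO replicate 1 or 2 at 1.0 µM, and without 0.1 µM replicate 1 or 3 or DMSO replicate 1 at 0.1 µM (adjusted p 0.0523 to 0.122), as well as without the filter (0.0627 and 0.0543). The gene-level calls were also lost without the filter (adjusted p = 0.0869 at 1.0 µM and 0.0730 at 0.1 µM) and without the intensity trend (0.0878 and 0.0804), and at 1.0 µM with median centring (0.0732). With the replicate block both were lost too (0.0972 and 0.0898), and with a robust variance setting the call at 1.0 µM (0.0544). The calls of 211162_x_at and 211708_s_at at 1.0 µM held under all 23 alternatives tried on probe sets. At 0.1 µM each was lost only within the lower spike set, where 0.1 µM has 1 array (changes of 1.49 and 0.95).

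**Figure D2:**
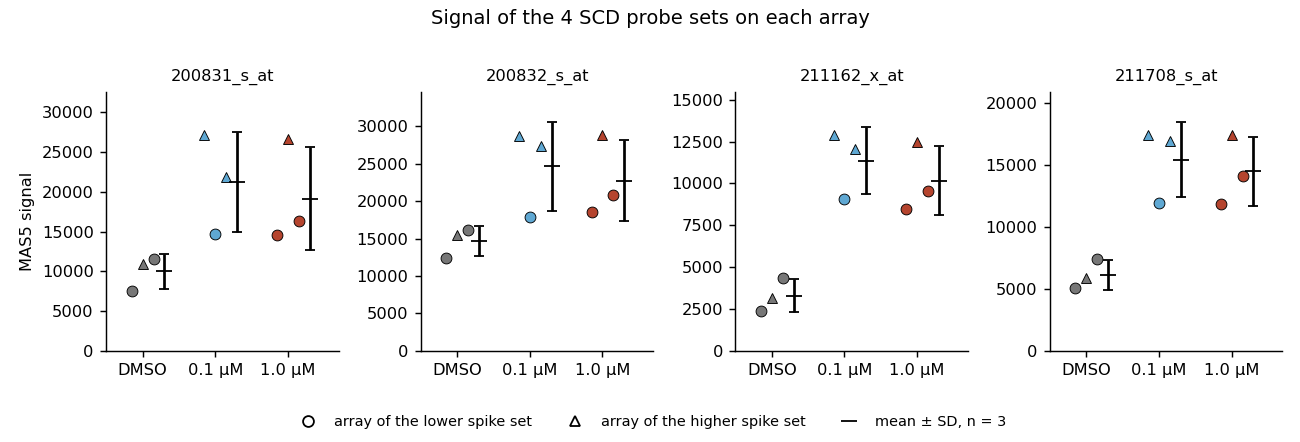
MAS5 signal (y axis, linear, from 0) of the 4 SCD probe sets on every array in DMSO, 0.1 µM and 1.0 µM TVB-3166 (x axis), with mean ± SD (n = 3) and triangles for the 4 arrays with higher hybridisation spikes. In all 4 panels every treated array lies above every DMSO array, and the treated arrays of the higher spike set are the highest.

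SCD5, a second stearoyl-CoA desaturase, was not called at either dose. SCD5 (Entrez gene 79966, chr4:82629539-82798796) had signals of 91.2, 90.3 and 142.7 in DMSO, 112.5, 96.9 and 157.5 at 0.1 µM, and 108.5, 94.4 and 136 at 1.0 µM in probe set 220232_at. The 3 groups overlapped throughout. The change was 0.07 ± 0.24 at 1.0 µM (95% interval −0.46 to 0.60, adjusted p = 0.884) and 0.16 ± 0.24 at 0.1 µM (−0.37 to 0.68, adjusted p = 0.745). Probe set 224901_at read 107.6, 143.9 and 106.7 in DMSO, 108, 131.2 and 93.6 at 0.1 µM, and 105, 66.2 and 95 at 1.0 µM. Its 1.0 µM arrays all lay below DMSO, by a change of −0.38 that was not called (adjusted p = 0.289). Probe sets 224018_s_at and 224019_at were under the filter.

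FADS2, the desaturase that starts the conversion of linoleic and alpha-linolenic acid to longer polyunsaturated acids, rose at both doses in its leading probe set. FADS2 (Entrez gene 9415, chr11:61816203-61867354) had signals of 1611, 1715 and 2837 in DMSO, 4593, 4757 and 5370.0 at 0.1 µM, and 3293, 3879 and 2450 at 1.0 µM in probe set 202218_s_at. All 0.1 µM arrays were above all others, and the 1.0 µM arrays overlapped with DMSO through its replicate 3. The change was 0.66 ± 0.20 at 1.0 µM (adjusted p = 0.0353) and 1.29 ± 0.20 at 0.1 µM (adjusted p = 0.00138). Between the doses, 1.0 µM minus 0.1 µM, it was −0.63 ± 0.20 (95% interval −1.08 to −0.19), which did not pass the adjustment (adjusted p = 0.218).

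Probe set 243953_at of FADS2 read 242, 143.8 and 245.1 in DMSO, 409.7, 366.4 and 284.3 at 0.1 µM, and 176.1, 191.1 and 233.8 at 1.0 µM. Here too the 0.1 µM arrays were above all others, while the 1.0 µM arrays lay within the DMSO range. The change was −0.04 at 1.0 µM (adjusted p = 0.938) and 0.73 at 0.1 µM (adjusted p = 0.0550), neither called, and −0.77 ± 0.21 between the doses (adjusted p = 0.197). The gene-level call at 1.0 µM was lost without 1.0 µM replicate 1 or 2 or DMSO replicate 1 or 2 (0.51 to 0.63, adjusted p 0.0904 to 0.131). The change was −0.04 where 243953_at stood for the gene. Within the lower spike set it was 0.41, and within the higher 1.17, where DMSO and 1.0 µM have 1 array each. The call at 1.0 µM was also lost without the filter (adjusted p = 0.0581) or the intensity trend (0.081) and with median centring (0.0543). It was lost too with the replicate block (0.0619) and where only the 6 arrays compared were fitted (0.0583). As the mean of its probe sets the gene changed by 0.31 (adjusted p = 0.162). Of 25 alternatives in all, 11 lost the call and 1 reversed the sign. At 0.1 µM the call was lost only within the lower spike set, where 0.1 µM has 1 array (1.15, beside 1.53 in the higher).

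**Figure D3:**
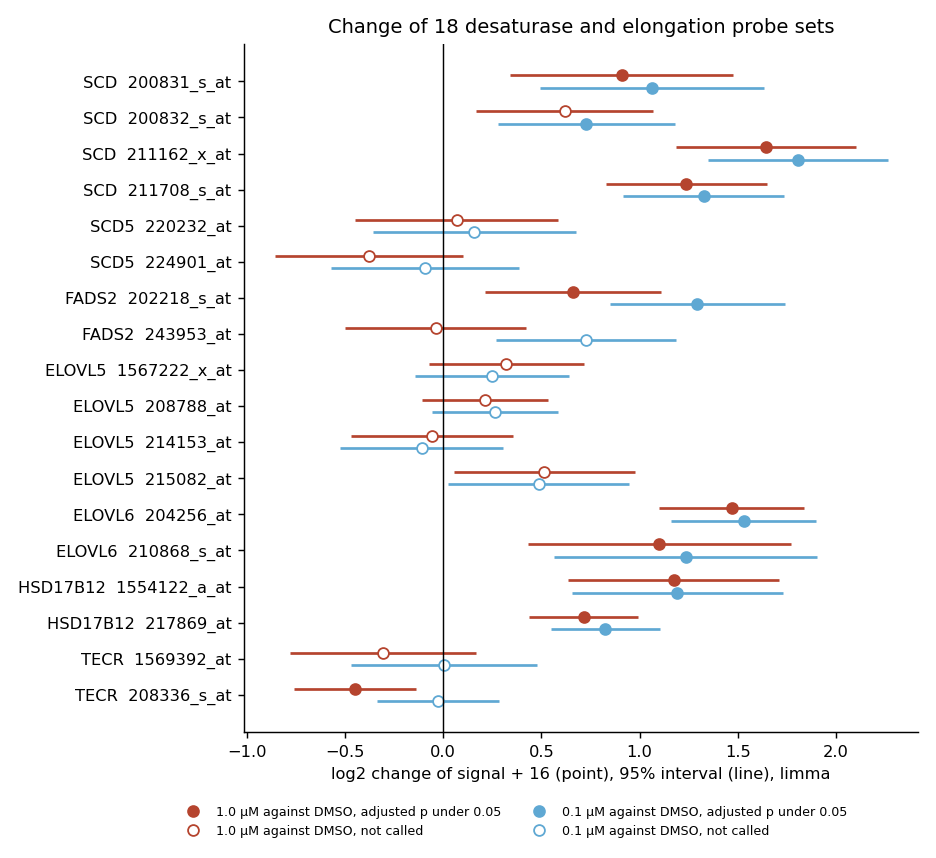
Log2 change of signal + 16 against DMSO (x axis; point) with its 95% interval (line) for the 18 desaturase and elongation probe sets above the filter (y axis), at 1.0 µM (red, upper) and 0.1 µM (blue, lower); filled points have an adjusted p under 0.05. The 4 SCD rows span 0.62 to 1.81, both FADS2 rows lie further right at 0.1 µM than at 1.0 µM, and TECR 208336_s_at is the filled point left of 0.

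Over probe sets, 8 of the 18 rose, 1 fell and 9 were not called at 1.0 µM against DMSO, where 17.6% of all 32768 probe sets were called (8.94% higher, 8.68% lower). At 0.1 µM, 9 rose and 9 were not called, where 8.25% were called (4.59% higher, 3.66% lower). In 8 of the 18 all 1.0 µM arrays lay above all DMSO arrays, which 16.1% of all probe sets showed, and in 2 (TECR 208336_s_at and SCD5 224901_at) all lay below, which 16.9% showed. In 11 of the 18 all 0.1 µM arrays lay above all DMSO arrays, which 12.4% of all probe sets showed. Probe sets of a gene share its transcript and are not replicates. Between the doses none of the 7 genes and none of the 18 probe sets was called by limma, where 0.817% of genes and 0.281% of probe sets were. At an unadjusted p under 0.05 there were 2 genes, FADS2 and TECR (12.4% of all genes), and 3 probe sets, the leading ones of these genes and 243953_at (10.8% of all probe sets). FADS2 was the gene whose arrays at 1.0 µM all lay below those at 0.1 µM, a pattern that 8.73% of all genes showed, and its 2 probe sets were the ones to show it of 18, beside 7.66% of all probe sets.

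Partners of these enzymes were described from a list of 24 genes, 19 of them tested: other desaturases and elongases, dehydratases, cytochrome b5 proteins and their reductases, and acyl-CoA synthetases. At 1.0 µM 6 rose, 2 fell and 11 were not called, with a median of 0.12, where 12.3% of all genes were called higher and 11.0% lower. At 0.1 µM 4 rose, 1 fell and 14 were not called, with a median of 0.15, where 6.89% of all genes were called higher and 5.11% lower. The 2 and 1 falls of 19 are near those shares. FADS3, a member of the FADS family beside FADS1 and FADS2 on chromosome 11, averaged 553 ± 62.7 in DMSO, 1119 ± 167 at 0.1 µM and 1627 ± 298 at 1.0 µM (SD, n = 3 each). Its change was 1.52 ± 0.15 at 1.0 µM (adjusted p = 1.76e-05) and 0.99 ± 0.15 at 0.1 µM (adjusted p = 0.000948). The elongase ELOVL7 rose by 1.14 at 1.0 µM (adjusted p = 0.00442) and 0.87 at 0.1 µM (adjusted p = 0.0337). ELOVL2 and ELOVL3 were not called.

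HACD3, a dehydratase of the cycle, fell by 0.46 at 1.0 µM (adjusted p = 0.00682) and 0.36 at 0.1 µM (adjusted p = 0.0387). HACD2 and HACD4 were not called, at −0.06 and −0.02 at 1.0 µM. At 1.0 µM the cycle thus had 2 of 5 tested condensing enzymes higher, the ketoreductase higher, 1 of 3 dehydratases lower and the enoyl reductase lower, where 12.3% of all genes were called higher and 11.0% lower; the call of the enoyl reductase TECR was lost in 10 of 25 alternatives. Among the electron donors, the cytochrome b5 reductase CYB5R3 changed by −0.45 (adjusted p = 0.00946), CYB5R4 by 0.41 (adjusted p = 0.0115) and CYB5R1 by 0.30 (adjusted p = 0.0349) at 1.0 µM. None of these 3 was called at 0.1 µM. PECR, the peroxisomal counterpart of TECR, rose by 0.42 (adjusted p = 0.0298), and the acyl-CoA synthetase ACSL1 rose by 1.04 (adjusted p = 0.00273) at 1.0 µM and 1.28 (adjusted p = 0.00130) at 0.1 µM.

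**Figure D4:**
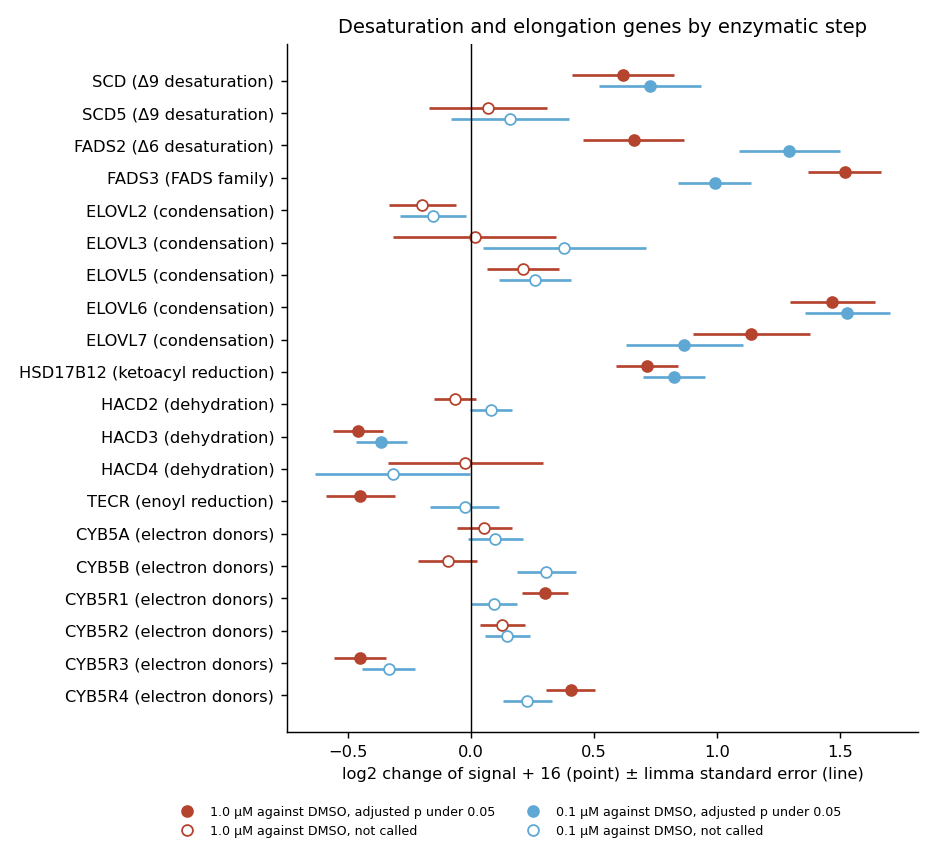
Log2 change of signal + 16 against DMSO (x axis; point) ± limma standard error (line) for 20 desaturation and elongation genes ordered by enzymatic step (y axis), at 1.0 µM (red, upper) and 0.1 µM (blue, lower); filled points have an adjusted p under 0.05. ELOVL6, ELOVL7 and HSD17B12 lie right of 0 at both doses, HACD3 left of 0 at both, and TECR is filled at 1.0 µM only, where the difference between doses did not pass the test.

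Genes that supply palmitate or regulate lipid synthesis were a list of 27, 25 of them tested. At 1.0 µM 11 rose, none fell and 14 were not called, with a median of 0.30, where 23.2% of all genes were called, 12.3% higher. At 0.1 µM 10 rose, none fell and 15 were not called, with a median of 0.23, where 12.0% were called, 6.89% higher. The acetyl-CoA synthetase ACSS2 rose by 2.46 (adjusted p = 1.8e-06) and the malic enzyme ME1 by 2.21 (adjusted p = 6.41e-08) at 1.0 µM. MID1IP1, a regulator of acetyl-CoA carboxylase, rose by 1.25, the carbohydrate response factor MLXIPL by 1.03, FASN by 1.01, INSIG1 by 0.96, SREBF1 by 0.73 and ACACA by 0.66 at 1.0 µM. MLXIPL was dim, at 25.7 to 67.9 in DMSO around a filter signal of 38.95 (adjusted p = 0.0293 at 1.0 µM). SREBF1, which encodes SREBP-1, had a change of 1.29 at 0.1 µM (adjusted p = 0.00138). Its difference between the doses was −0.56, which was not called (adjusted p = 0.288). None of the 25 tested genes of this list was called between the doses, where their median was −0.07.

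Across the 9 arrays, SCD correlated with HSD17B12 at 0.92 and with ELOVL5 at 0.90 (Pearson's r of log2 signals), while TECR had an r of 0.08 with SCD and −0.43 with ELOVL6. These values describe arrays that share groups and spike sets. The tested genes most like SCD were FBXW4 (0.985), CPNE7 (0.979), ENSA (0.978) and GARS1 (0.978). ELOVL6 was most like IFIT3 (0.993), IFIH1 (0.989), ABCA1 (0.986) and SLCO4C1 (0.986). TECR was most like BAD (0.986), TTLL5 (0.976), CIB1 (0.974) and RNPEP (0.974).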

How the data were processed

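Total RNA was labelled with biotin and hybridised to HG-U133 Plus 2.0 arrays, per the labels' protocols. The authors deposited linear intensity values, 1 for each probe set, which the submitters' processing notes call MAS5 (no version is given in the sources used here). Every deposited array has a mean of 500.1 once 2% is trimmed from each end. Values were turned into log2(signal + 16), which makes folds of dim probe sets smaller. Probe sets with a mean level over the 40th percentile, a signal of 38.95, were tested over all 9 arrays in R 4.3.3 with limma 3.58.1, using lmFit and eBayes with a trend on intensity. The test is two-sided, with Benjamini-Hochberg adjustment over all genes or all probe sets of a comparison. The fit was also run on simulated data with independent noise, which checked the size of estimated changes and not the error rate. Symbols came from the platform annotation supplied with the series, updated to RefSeq on GRCh38.p14 (41037 of 41091 probe sets with 1 symbol). Identifiers ending in _s_at or _x_at can bind related transcripts.

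Samples were grouped by title. For the 3 samples titled 1.0 µM another label field reads 0.1 µM, and 0.1 µM replicate 1 is described as DMSO in another field. The DMSO concentration of the DMSO samples differs between label fields, and the treated samples carry the higher value. The labels thus do not settle whether the vehicle was equal in all groups. The members and gene lists were chosen with earlier results of these data known. All 9 members were named, and of each other list up to 8 genes with the largest change among those called at 1.0 µM. For SCD, ELOVL6 and TECR the 4 genes with the highest r over the arrays were named. Alternatives were other added constants, filters, normalizations, variance settings, blocks, spike sets alone, rules for 1 probe set a gene, a 1.5-fold minimum and each array left out in turn. In the spike sets alone some groups have 1 array, so a call kept or lost there does not measure the spread of those groups. Protein sequences were not used here, and HSD17B12 has no promoter entry in the table used.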

Additional observations from a re-analysis of the deposited data

How the results depend on the processing

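Of the calls at both doses, those of ELOVL6 and HSD17B12 held under all 25 alternatives run on genes. For 1.0 µM against DMSO, the count of called genes, 5, became 2 where low signals were kept, 2 without the trend, 2 with the replicate block, 3 with median centring, 3 where probe sets not ending in _s_at or _x_at were taken first, and 2 to 5 with 1 array left out; it was 6 with quantile normalization and with the spike set as a block. For 0.1 µM against DMSO the 4 became 3 without the filter, without the trend and with the replicate block. They were 3 or 4 with 1 array left out and 5 with quantile normalization. Counts within 1 spike set are not given, as some groups there have 1 array. The 9 probe sets at 0.1 µM became 5 to 9 with 1 array left out and 6 without the filter and with the replicate block. They were 11 with quantile normalization and 10 with the spike block. The 9 probe sets at 1.0 µM became 5 without the filter and with the replicate block, and 11 with quantile normalization and with the spike block. Same-numbered arrays had residual correlations from −0.34 to 0.22. The replicate numbers run across the spike sets, so these values cannot settle whether the numbers pair the arrays. The replicate block did not change the count between doses, 0.

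Values that changed sign were uncalled ones, except FADS2 at 1.0 µM. Between the doses, ELOVL5 was 0.026 with quantile normalization, 0.060 with the spike set as a block, 0.12 and 0.025 in the lower and higher spike set, 0.026 as the mean of its probe sets and −0.19 to 0.028 with 1 array left out. SCD was 0.037 with that block, 0.14 and 0.042 in the lower and higher set and −0.33 to 0.024 with 1 array left out. SCD5 was 0.29 in the lower set and −0.22 to 0.086 with 1 array left out, HSD17B12 was 0.027 in the higher set, and ELOVL6 was −0.14 to 0.046 with 1 array left out. At 0.1 µM against DMSO, TECR and 208336_s_at were 0.0030 with median centring and −0.12 to 0.089 with 1 array left out, and TECR was 0.0022 where 1569392_at stood for it. In the lower set SCD5 and 220232_at were −0.21, 224901_at 0.26 and 1569392_at −0.26, and 214153_at was 0.013 in the higher. With 1 array left out, SCD5 and 220232_at were −0.017 to 0.35, 224901_at −0.20 to 0.033 and 1569392_at −0.088 to 0.093. At 1.0 µM against DMSO, 214153_at was 0.041 in the lower set, 243953_at 0.37 in the higher, SCD5 −0.15 as the mean of its probe sets and FADS2 −0.038 where 243953_at stood for it. With 1 array left out, SCD5 and 220232_at were −0.055 to 0.26, 214153_at −0.17 to 0.11 and 243953_at −0.27 to 0.083.

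The cause of these changes was not tested. Each group has 3 arrays, which limits the precision, and the probe sets under the filter were not tested in the main setting.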
